A study of Sus scrofa with 16 samples.

Results

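Open chromatin of newborn kidney was set against that of newborn liver, using 1 merged peak list per tissue on chromosomes 1 to 18. A kidney peak without a single base of overlap with a liver peak was called kidney-only, a liver peak without a kidney peak was called liver-only, and the rest were called shared. The kidney list held 128184 peaks and the liver list 115504, out of 798988 peaks in the 8 lists of the series. The peaks fell into 64628 kidney-only peaks, 51762 liver-only peaks, and 63556 kidney and 63742 liver peaks that were shared, which together made 61212 distinct shared regions.

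The peaks came from ATAC-seq, which reads accessible DNA through the insertions of an engineered transposase. Each list rests on 2 replicates of 1 tissue from untreated female domestic crossbred pigs at day 0, and neither group carried a transgene, a deletion or an agent. According to the study's methods the newborn animals were full sisters of a Berkshire × Tibetan cross, and the labels do not say which kidney and liver samples share an animal. Whole tissue was used, so fewer cells of a type and less open chromatin per cell cannot be told apart. Replicates were merged before deposit, so no count of a list has a replicate error, and Wilson 95% confidence intervals of shares cover counting error only. The lists give no counts of reads and no value was adjusted for depth, and by the study's own read totals, not analysed here, both liver libraries were deeper than both kidney libraries. The part of depth in the sets was not tested. Strength is therefore given as the −log10 p of the peak in replicate 1 and in replicate 2, and as the percentile, within its own list, of the smaller of these values. A peak missing from a list was not called, which does not show that the site was closed.

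Kidney and liver are both epithelial organs that handle glucose, amino acids and fatty acids, and both use the nuclear receptor HNF4A. The nephron is built by regulators such as PAX2, LHX1 and OSR1 and reclaims solutes through transporters of the tubule. Hepatocytes secrete plasma proteins, make urea and bile acids, and depend on C/EBP, FOXA and ONECUT factors, and the liver around birth also holds blood-forming cells.

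Sequences from 9 peaks show what the sets look like at the base level. Each is a window of 200 bp centred on the summit of a peak in Sscrofa11.1, plus strand, 5′ to 3′, and none touches an exon of a protein-coding gene. Capitals mark matches to the 16 short consensus sequences described further on, and overlapping matches run together. The windows stand for HNF4A and for the strongest promoter peaks of each set among listed genes, as far as their windows touch no exon. For the one-tissue sets, only genes with a promoter peak in that tissue alone were considered. The rest are the strongest one-tissue peaks in listed genes among those that hold a match to HNF1, TEAD or ONECUT, which were picked for that match.
HNF4A intron, shared, chr17:46807871-46808070: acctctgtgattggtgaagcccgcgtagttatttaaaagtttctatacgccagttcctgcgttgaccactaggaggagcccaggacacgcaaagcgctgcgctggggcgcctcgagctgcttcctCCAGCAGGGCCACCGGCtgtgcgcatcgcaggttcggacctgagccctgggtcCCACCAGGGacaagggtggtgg
HNF4A intron, kidney-only, chr17:46833949-46834148: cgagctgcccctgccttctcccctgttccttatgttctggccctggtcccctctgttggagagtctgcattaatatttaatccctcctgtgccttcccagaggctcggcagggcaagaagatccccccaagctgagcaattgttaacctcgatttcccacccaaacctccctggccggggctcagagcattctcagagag
TRPV5 promoter, kidney-only, chr18:7287726-7287925: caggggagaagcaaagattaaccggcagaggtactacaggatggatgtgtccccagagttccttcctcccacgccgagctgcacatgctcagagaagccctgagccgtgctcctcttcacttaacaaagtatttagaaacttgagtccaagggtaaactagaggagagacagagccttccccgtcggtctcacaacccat
SLC4A4 intron, kidney-only, chr8:68064721-68064920: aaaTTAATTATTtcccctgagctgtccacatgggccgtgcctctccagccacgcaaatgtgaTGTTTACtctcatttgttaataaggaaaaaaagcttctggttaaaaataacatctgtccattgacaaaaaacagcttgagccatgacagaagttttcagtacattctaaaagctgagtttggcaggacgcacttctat
ESRRG intron, kidney-only, chr10:7260899-7261098: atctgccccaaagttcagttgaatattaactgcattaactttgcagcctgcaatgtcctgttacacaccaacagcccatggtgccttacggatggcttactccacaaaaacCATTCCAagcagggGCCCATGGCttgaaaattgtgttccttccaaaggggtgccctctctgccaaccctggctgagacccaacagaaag
F10 promoter, liver-only, chr11:78521552-78521751: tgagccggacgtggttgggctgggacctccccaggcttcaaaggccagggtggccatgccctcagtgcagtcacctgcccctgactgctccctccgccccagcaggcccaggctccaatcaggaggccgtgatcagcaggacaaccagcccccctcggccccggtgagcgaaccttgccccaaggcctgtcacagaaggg
CPT1A promoter, liver-only, chr2:4250091-4250290: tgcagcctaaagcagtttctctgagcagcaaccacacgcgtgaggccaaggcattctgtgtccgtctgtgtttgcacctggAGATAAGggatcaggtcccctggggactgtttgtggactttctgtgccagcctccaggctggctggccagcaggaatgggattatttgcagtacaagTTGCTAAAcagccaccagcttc
APOB intron, liver-only, chr3:117254168-117254367: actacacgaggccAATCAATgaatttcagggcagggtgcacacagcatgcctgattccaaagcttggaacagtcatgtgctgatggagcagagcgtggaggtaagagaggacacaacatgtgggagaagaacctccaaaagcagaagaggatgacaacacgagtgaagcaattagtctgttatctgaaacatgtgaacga
CALB1 promoter, shared, chr4:46700980-46701179: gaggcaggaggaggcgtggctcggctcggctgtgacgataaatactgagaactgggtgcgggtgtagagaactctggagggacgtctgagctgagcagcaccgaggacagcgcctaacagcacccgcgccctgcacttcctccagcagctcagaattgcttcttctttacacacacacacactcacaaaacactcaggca

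The window upstream of CPT1A, which encodes the enzyme that lets long-chain fatty acids into mitochondria, held a GATA match at base 82 and a C/EBP match at base 179, counted from 1 at the left end of the window. The SLC4A4 window held an HNF1 match at base 4 and a FOXA match at base 63. SLC4A4 encodes the bicarbonate exporter of the proximal tubule. The ESRRG window held TEAD and TFAP2 matches at bases 112 and 126. Neither the kidney-only window of HNF4A nor the windows of TRPV5, F10 and CALB1 held any of the 16 sequences.

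HNF4A itself was accessible in both tissues. Its promoter class was shared, and of the 14 kidney peaks over the gene and its promoter 12 overlapped liver peaks, while all 12 liver peaks there overlapped kidney peaks. The 2 kidney-only peaks lay in introns toward the 3′ end. The stronger of them, at chr17:46833775-46834304, 50.3 kb from the gene start, had a −log10 p of 27.8 in replicate 1 and 43.8 in replicate 2, and stood at percentile 90.9 of the kidney list. The weaker, 57.5 kb from the start, had 13.1 and 14.3 and stood at percentile 75.5. No liver-only peak lay in the gene. Shared peaks differed in their rank within the lists. The peak 11.2 kb from the start was at percentile 99.3 in liver, with 260.8 and 112.2 in the replicates, and at percentile 40.3 in kidney, with 5.97 and 10.6. The peak at the annotated gene start was weak in kidney in both replicates (4.14 and 4.32). In liver it was strong in replicate 1 and weak in replicate 2 (192.0 and 5.87), and the same held at the internal promoter 37.2 kb downstream (185.0 and 4.28 in liver, 15.4 and 29.2 in kidney). Replicate 1 exceeded replicate 2 in the liver list as a whole, with medians of 24.9 and 8.66, whereas the kidney medians were 8.10 and 9.80.

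The sets differed in strength and in position. Kidney-only peaks made up 50.4% (95% confidence interval 50.1 to 50.7) of the kidney list and liver-only peaks 44.8% (44.5 to 45.1) of the liver list. With an equal number of top-ranked peaks per list, 115504 in each, the shares were 47.8% and 47.4%. Shared peaks were nearly equal in number in both lists, so lists of the same length give near-equal shares by construction. One-tissue peaks were narrower, with median widths of 311 bp in kidney and 351 bp in liver against 514 and 537 bp for shared peaks. The share of kidney peaks that were shared went from 26.1% in the weakest 10% of the list to 92.1% in the strongest 10%. In liver it went from 39.0% to 88.4%. At an irreproducible discovery rate (IDR, a measure of how well a peak's rank matches between replicates) of 0.05 or lower stood 17.3% of kidney-only and 11.2% of liver-only peaks, against 50.9% and 25.9% of the shared peaks of each list. One-tissue peaks were thus the weaker and less reproducible members of both lists, and single peaks among them rest on less evidence than shared ones.

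Promoters, taken as 2.2 kb upstream to 500 bp downstream of the start sites of protein-coding genes, held 4.75% of kidney-only and 5.01% of liver-only peaks but 23.7% and 23.8% of shared peaks. Kidney-only peaks lay far from genes more often than liver-only peaks. Their median distance to a start site was 44.5 kb against 28.1 kb, and 29.3% against 18.9% lay more than 100 kb away. Intergenic DNA held 43.0% (42.6 to 43.3) of kidney-only and 37.5% (37.1 to 37.9) of liver-only peaks.

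**Figure D1:**
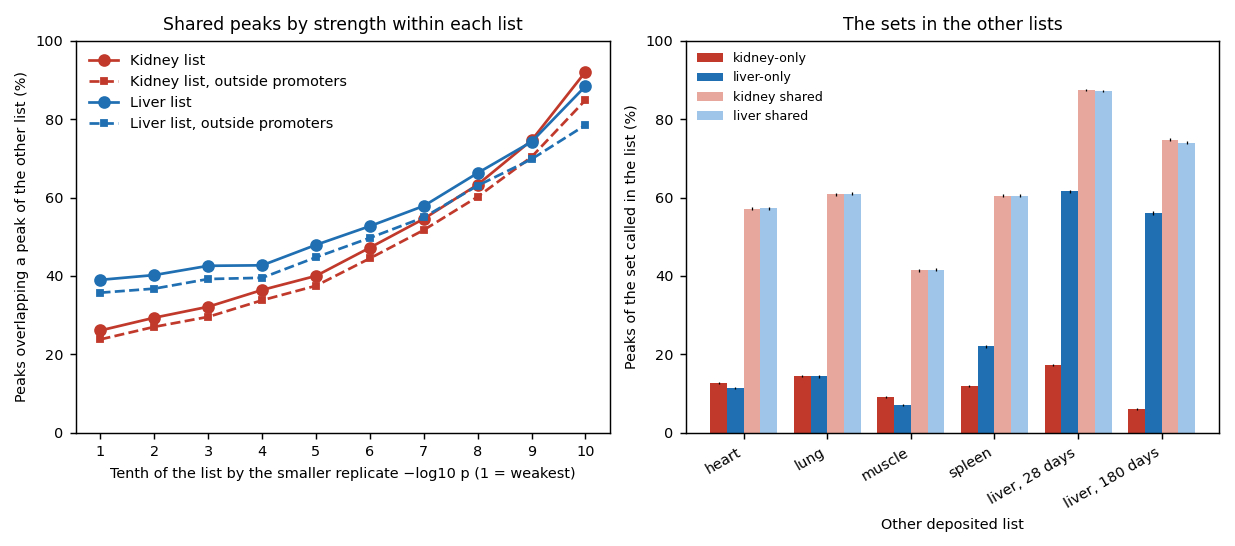
Left, the percentage of peaks that overlap a peak of the other list in each 10% of a list ordered by strength, for all peaks (solid) and outside promoters (dashed). Right, the percentage of each set that is called in each of the other 6 lists, with Wilson 95% intervals as bars. The shared share climbs to 92.1% in kidney and 88.4% in liver. Liver-only peaks recur in the later liver lists (61.6% and 56.0%) more than kidney-only peaks (17.3% and 6.09%) and less than shared peaks.

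The lists of the other tissues and ages, which did not define the sets, were then compared with them. Liver-only peaks recurred in liver of other ages. Of them 61.6% were called at 28 days and 56.0% at 180 days, and 45.8% at both, while 28.1% were called at neither. Of kidney-only peaks 17.3% and 6.09% were called at these ages, and 79.8% at neither. Shared peaks of the kidney and liver lists were called more often, at 87.5% and 87.3% at 28 days and 74.8% and 74.0% at 180 days. The sets were formed by calls in newborn liver, so the gap between the one-tissue sets in later liver follows in part from that choice. Spleen, another blood-rich organ, held 22.0% of liver-only and 11.8% of kidney-only peaks. In lung the shares were 14.4% for both sets. Of kidney-only peaks 68.6%, and of liver-only peaks 62.4%, were called in none of newborn heart, lung, muscle and spleen, against 20.5% and 20.3% of the shared peaks of the kidney and liver lists. The other lists differ in length, so these shares can be read between sets but not between lists.

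Genes were next grouped by whether their promoters held a peak of 1 list or of both. Among 18725 protein-coding genes, 13256 (70.8%) had a promoter peak in both lists, 920 (4.91%) in kidney only, 644 (3.44%) in liver only and 3905 in neither. Of the genes with promoters open in 1 tissue, 876 and 608 had a peak there that was kidney-only or liver-only along its whole length. With an equal number of peaks per list the counts were 828 for kidney and 904 for liver, so the excess of kidney genes turned round. Within the span of a gene, which takes in its promoter and 300 bp past its end, a kidney-only peak was found in 50.9% of genes, a liver-only peak in 52.0%, and both kinds in 35.0%. A one-tissue promoter was thus rare, and one-tissue peaks inside genes were common. Gene spans collect more peaks the longer the gene, so counts of peaks are set side by side only within a gene or list.

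**Figure D2:**
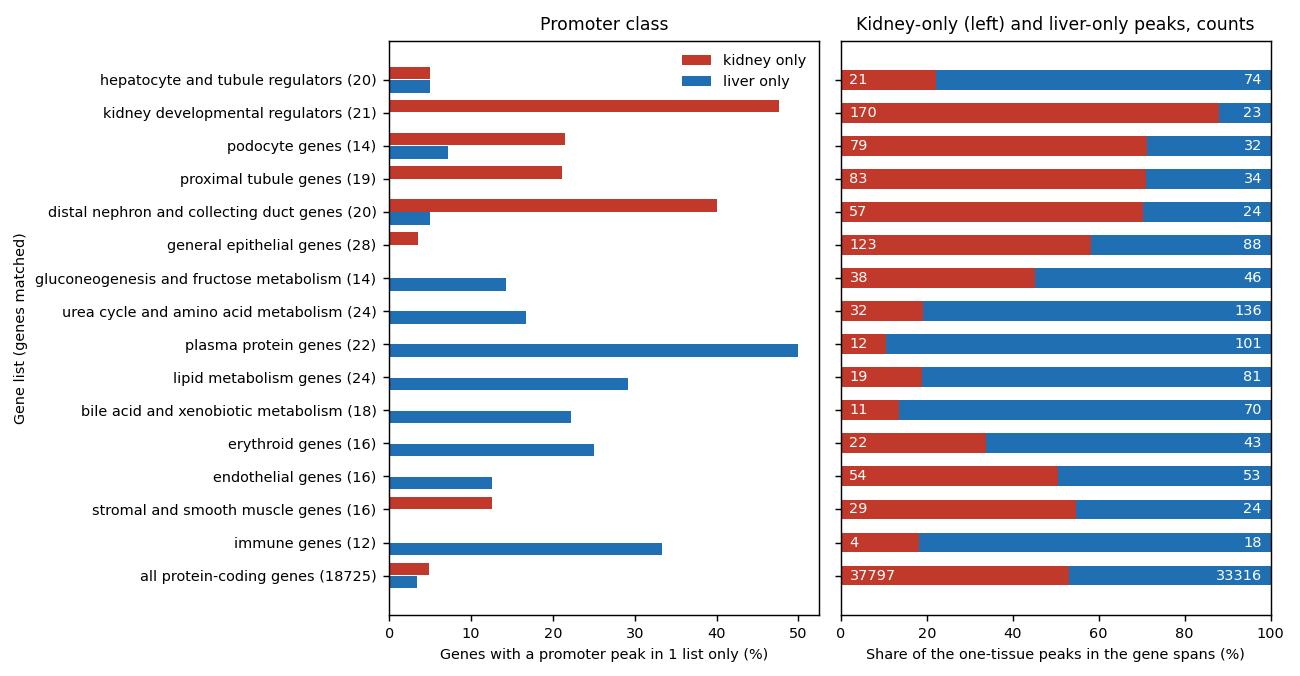
Left, the percentage of matched genes of each list whose promoter had a peak in kidney only (red) or liver only (blue). Right, the split of kidney-only and liver-only peaks in the gene spans, with the peak counts printed in the bars. Kidney regulators and nephron lists lie on the kidney side (170 against 23 peaks for the regulators). Hepatic metabolism and plasma proteins lie on the liver side (12 against 101 for plasma proteins). General epithelial genes lean to kidney by less (123 against 88, beside 37797 against 33316 over all genes).

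Regulators of kidney development lay on the kidney side. Of 21 matched genes 10 had a promoter peak in kidney only (47.6%, against 4.91% of all genes), none in liver only and 10 in both, and their spans held 170 kidney-only against 23 liver-only peaks. ESRRG, a nuclear receptor of energy metabolism, had 48 kidney-only peaks over 661 kb and neither a shared nor a liver-only peak. Its strongest promoter peak, at a start site inside the gene, had 23.9 and 42.0 in the kidney replicates and was at percentile 88.7. OSR1, one of the earliest genes of the kidney field, had 31 against 3 peaks in its span, which is long because the annotated gene runs from base 118368471 to base 118765107 of chromosome 3, and MECOM, a zinc finger transcription factor, 36 against 7. EMX2, needed for the urogenital ridge, had a promoter peak of 20.7 and 33.5 in the kidney replicates, and POU3F3, a regulator of the loop of Henle, one of 17.9 and 20.9. Neither had a liver peak at its promoter. PAX2, which sets up the nephric lineage, had a kidney-only promoter peak of 11.5 and 33.1 and 11 against 4 peaks in its span. OSR1 (11.8 and 12.2) had the fourth strongest one-tissue promoter by the smaller value. LHX1, HOXA11, HOXD11, IRX3 and SIX2 also had promoters called in kidney only, at lower smaller values of 3.03 to 8.61. HOXD11 (5.51 and 3.03) stood at percentile 0.502 of the kidney list, so its call was among the weakest made. WT1, GATA3 and SALL1 had a promoter peak in both lists, and IRX1 in neither. The strongest promoter peak of WT1 in kidney was kidney-only (19.8 and 19.6, percentile 85.1). Its liver promoter peak was among the weakest calls (9.44 and 3.53, percentile 3.84). SALL1 stood at percentile 93.5 in kidney and 17.7 in liver (4.41 and 35.1), and GATA3 at 97.6 and 98.3.

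Nephron segment genes followed in the same direction with smaller shares. In the podocyte list, the cells that wrap the filtering capillaries, 3 of 14 genes had a promoter peak in kidney only (21.4%, against 4.91% of all genes). These were SYNPO (14.1 and 34.9), PTPRO (15.8 and 11.3) and NPHS1 (9.05 and 7.14), which encodes nephrin of the slit diaphragm. The transcription factor gene LMX1B was the exception with a promoter peak in liver only, of 11.3 and 3.45 at percentile 3.29, while its span held 13 kidney-only peaks and 1 liver-only peak. In the proximal tubule list 4 of 19 promoters were called in kidney only (21.1%, against 4.91% of all genes), and none in liver only. They were those of the phosphate transporter SLC34A1 (23.3 and 16.8), the lactate transporter SLC5A12 (12.4 and 27.9), the endocytic receptor CUBN (8.72 and 27.5) and the amino acid transporter SLC6A19, whose peak (7.88 and 7.72) overlapped a liver peak that ended outside the promoter. LRP2, the partner receptor of CUBN, had a shared promoter and 9 kidney-only against 0 liver-only peaks, and SLC4A4 28 against 12. The glucose reabsorber SLC5A2 and the organic anion transporters SLC22A6 and SLC22A8 had no promoter peak in either list, and 5 kidney-only peaks in their spans together. 

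The distal nephron and collecting duct list had 8 of 20 promoters in kidney only (40.0%, against 4.91% of all genes). The strongest were TRPV5, the apical calcium channel (32.4 and 23.5), SLC12A1, the sodium, potassium and chloride cotransporter of the loop of Henle (17.4 and 19.9), CLDN19, a tight junction protein of the same segment (14.98 and 12.6), and ATP6V0A4, a proton pump subunit (12.3 and 18.04). AQP2, the vasopressin-regulated water channel, was called weakly (4.92 and 5.70). CALB1, the calcium buffer of the distal convoluted tubule, had a promoter peak in both lists, with 104.5 and 114.1 in kidney (percentile 99.6) and 12.8 and 42.8 in liver (percentile 69.2). SLC4A1 was the only member of this list with a liver-only promoter (33.7 and 9.88). It encodes the anion exchanger of acid-secreting cells in the kidney and also of red cells.

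General epithelial genes were nearly all open in both tissues at their promoters when every peak was used. Of 28 genes 27 had a promoter peak in both lists (96.4%, against 70.8% of all genes), and KRT19, a keratin of ducts and tubules, was the only one called in kidney only (24.1 and 39.2, percentile 88.8). At an IDR of 0.05 or lower in both lists 11 were in kidney only, 3 in liver only and 10 in both. Under that limit 3467, 1202 and 7144 of all 18725 genes fell into these classes. Among the top 20000 peaks of each list the counts were 7, 4 and 7, against 2109, 1494 and 6349 of all genes. EPCAM, CGN, CLDN3, CLDN7 and ESRP2 were above percentile 74 in both lists. Their one-tissue peaks lay inside the genes, with 123 kidney-only and 88 liver-only peaks in all and more kidney-only peaks in 18 of 28 genes. Polarity gene PARD3 had 37 kidney-only and 36 liver-only peaks, CLDN10 15 and 3, and GRHL2, an epithelial transcription factor, 9 and 4. CDH1, which encodes E-cadherin, went the other way with 5 and 9, and its promoter peak differed widely between replicates in both lists (4.31 and 61.3 in kidney, 227.5 and 8.95 in liver). CDH16, the kidney-specific cadherin, had 1 shared promoter peak, at percentile 94.0 in kidney and 46.4 in liver. Background for the direction is that 5592 of all genes had more kidney-only and 5703 more liver-only peaks.

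The list of hepatocyte and tubule regulators was mostly called in both tissues at the promoter, as were all genes. Of 20 genes 18 had promoter peaks in both lists, against 70.8% of all genes. In their spans 14 of the 20 had more liver-only and 5 more kidney-only peaks, 74 against 21 in all. Over all genes 5703 had more liver-only and 5592 more kidney-only peaks, with 33316 against 37797 peaks. NR5A2, a regulator of bile acid synthesis, had 13 liver-only and 2 kidney-only peaks, NR1H4, the bile acid receptor, 11 and 3, PROX1 9 and 0, and ONECUT1 6 and 0. HNF4A was among the 5 genes that went the other way. NR1I3, a xenobiotic receptor, was the only member with a promoter called in liver only (176.5 and 43.1, percentile 93.2), and HNF4G the only one in kidney only (9.73 and 5.74, percentile 37.7).

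Plasma protein genes lay on the liver side. Of 22 genes 11 had a promoter peak in liver only (50.0%, against 3.44% of all genes) and none in kidney only. Liver-only peaks outnumbered kidney-only peaks in 21 of 22 genes, 101 against 12 in all. The strongest of the liver-only promoters belonged to F10 and SERPIND1, a clotting factor and an inhibitor of clotting. F10 had 280.4 and 47.6 in the liver replicates and SERPIND1 had 208.7 and 29.8. FGA, a fibrinogen chain (226.3 and 25.8), and HPX, which binds haem (155.5 and 23.9), followed. ALB had no promoter peak in either list at the annotated start, and 9 liver-only peaks and no kidney peak in its span. Transferrin, TF, whose 2 annotated entries were combined, had a shared promoter and 20 liver-only peaks against 0 kidney-only ones.

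Amino acid and urea genes were mostly shared at the promoter, as were all genes, and their one-tissue promoters and peaks leaned to liver. Of 24 genes 19 had promoter peaks in both lists (79.2%, against 70.8% of all genes). In liver only were 4 (16.7%, against 3.44%), and in kidney only none (against 4.91%). More liver-only than kidney-only peaks lay in the spans of 19 genes. CPS1, which commits ammonia to urea, had 39 liver-only peaks over 129 kb and no kidney peak, and no peak of either list at its annotated promoter. The largest excess of liver-only peaks of any gene was that of CPS1. ASS1, which acts in both organs, had 13 liver-only and 3 kidney-only peaks and promoter peaks in both. The liver-only promoters were those of TDO2 (314.0 and 27.7), TAT (131.5 and 24.8), ARG1 (173.2 and 21.4) and DPYS (99.0 and 4.003). These encode enzymes of tryptophan, tyrosine, arginine and pyrimidine breakdown. The promoter of ARG2, the mitochondrial arginase, was called in both lists.

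Genes of gluconeogenesis, which both organs carry out, were mostly shared at the promoter, as were all genes. Of 14 genes 11 had promoter peaks in both lists (78.6%, against 70.8% of all genes). In liver only were 2 (14.3%, against 3.44%), and in kidney only none (against 4.91%). Liver-only peaks were the more numerous in 8 genes and kidney-only peaks in 4, with 46 and 38 peaks in all, of which 19 and 25 lay in PPARGC1A alone. The promoter of FBP1, a committed enzyme of the pathway, was among the strongest of both lists, with 86.4 and 108.4 in kidney (percentile 99.2) and 326.1 and 114.7 in liver (percentile 99.4). PCK1 was called in both (6.34 and 33.2 in kidney, 231.3 and 22.4 in liver), and so were G6PC1 and PCK2. GPT, which turns alanine into pyruvate (207.9 and 85.8), and GYS2, the liver glycogen synthase (242.1 and 3.97), had promoters in liver only. PPARGC1A, a coactivator of fasting genes, had 22 shared kidney peaks besides its one-tissue peaks.

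Lipid and bile acid genes lay on the liver side. Promoters were called in liver only for 7 of 24 lipid genes (29.2%) and 4 of 18 bile acid and xenobiotic genes (22.2%), against 3.44% of all genes. None of either list was called in kidney only, against 4.91% of all genes. CPT1A (181.8 and 36.9) and MTTP, which loads lipoproteins (170.8 and 17.2), were among the strongest of the lipid list. SLC10A1, the bile acid importer (117.2 and 26.6), and SLCO1B3, an organic anion importer (189.6 and 20.4), led the other list, before CYP2E1 (88.2 and 18.3) and SULT2A1 (66.6 and 10.7). LIPC had 19 liver-only and 3 kidney-only peaks and AKR1D1, of bile acid synthesis, 16 and 1.

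**Figure D3:**
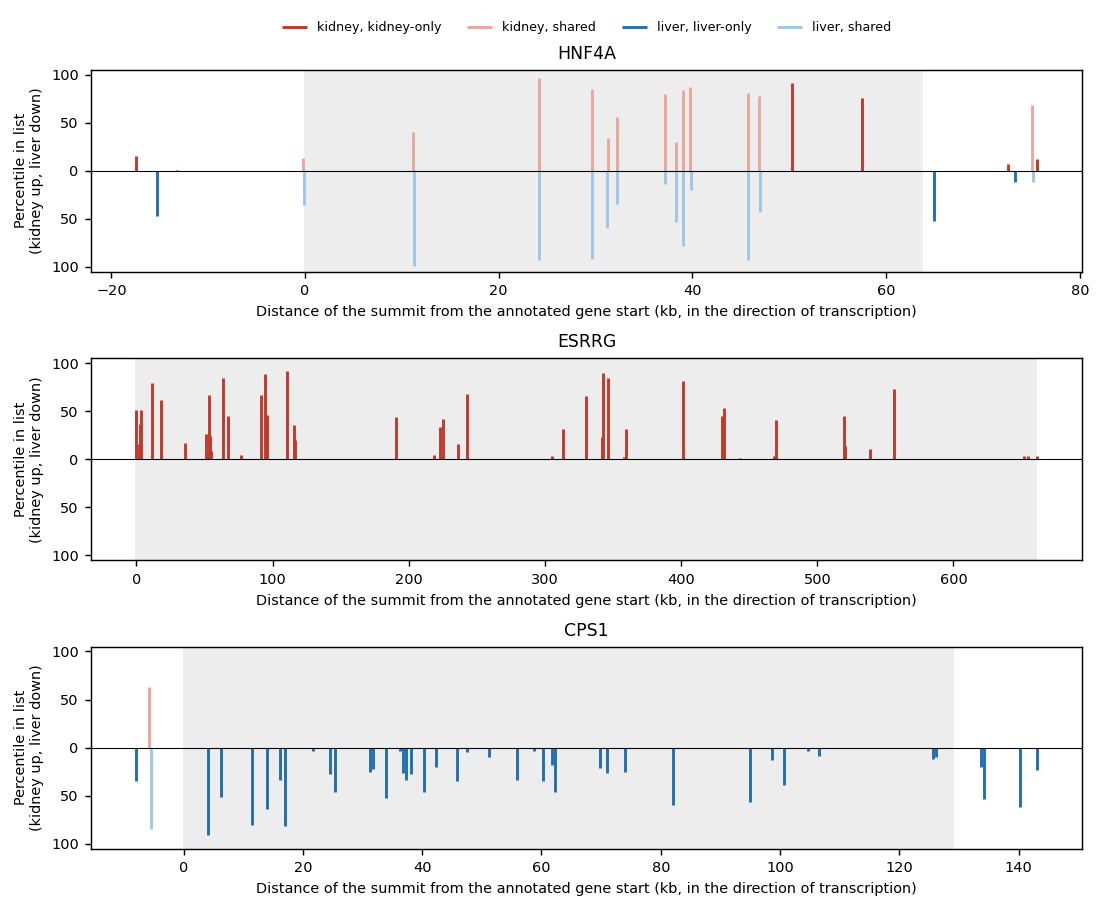
Peaks over HNF4A, ESRRG and CPS1 and 20 kb on either side, placed by the distance of the summit from the annotated gene start (kb), with height giving the percentile within the kidney list (upward) or the liver list (downward). Dark lines are kidney-only or liver-only peaks, pale lines are shared peaks, and the gene body is grey. HNF4A holds mostly paired pale lines, ESRRG holds 48 kidney-only peaks and CPS1 39 liver-only peaks.

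Markers of other cell types were counted in the same way, since whole organs were used. Erythroid genes had 4 of 16 promoters in liver only, AHSP, EPB42 and GFI1B among them, and none in kidney only, with 43 liver-only and 22 kidney-only peaks. When only peaks at an IDR of 0.05 or lower in both lists were kept, the erythroid promoters turned to 3 in kidney only and 0 in liver only, and the endothelial ones to 4 and 3. Under that limit 3467 of all 18725 genes were in kidney only and 1202 in liver only, so the erythroid count was close to the share over all genes. With every peak used, immune genes had 4 of 12 in liver only (33.3%, against 3.44% of all genes), namely CSF1R, SPI1, LYZ and PTPRC. None was in kidney only (against 4.91%). Endothelial genes had 2 of 16 in liver only (12.5%, against 3.44% of all genes), namely LYVE1 (69.7 and 19.6) and CLEC4G (28.9 and 8.73), both of the liver sinusoid. Their spans held 54 kidney-only against 53 liver-only peaks. Stromal genes had 2 of 16 in kidney only (12.5%, against 4.91% of all genes), the collagens COL1A1 (12.7 and 16.9) and COL3A1 (5.80 and 17.7). Among the top 20000 peaks of each list they turned to 1 in kidney only and 3 in liver only. Of all 18725 genes 2109 and 1494 were in these classes under that limit. The defining blood markers were not all liver-sided. KLF1 had no promoter peak in either list, and EPOR was called in both. The part of these cells in the liver-only set was not tested.

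The one-tissue peaks of the lists differed in how often they recurred elsewhere. Of the liver-only peaks in bile acid, lipid and plasma protein genes, 61.4%, 61.7% and 59.4% were called in liver at both later ages, against 45.9% (45.3 to 46.4) over all genes. Shares of that order were also found for gluconeogenesis (63.0%), the hepatocyte and tubule regulators (58.1%), general epithelial genes (55.7%) and immune genes (55.6%). Urea and amino acid genes gave 41.9% (34.0 to 50.3). Erythroid genes gave 16.3% (8.12 to 30.0), and 53.5% (38.9 to 67.5) of their liver-only peaks were called in spleen, against 22.0% over all genes. The share in spleen was higher for the 18 liver-only peaks of immune genes, at 72.2% (49.1 to 87.5). For podocyte genes it was 37.5% (22.9 to 54.7). Of the 170 kidney-only peaks of kidney regulators 0 were called in liver at both later ages, with an upper interval bound of 2.21%, and 3.72% over all genes were. At 28 days alone 16 (9.41%) of the 170 were called, and at 180 days 0, against 18.7% and 6.99% over all genes. Kidney-only peaks lack a call in newborn liver by definition. The intervals treat peaks as independent, and peaks of a gene are not.

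By strength alone, without regard to lists, the kidney-only promoters were led by UNC13C, a gene of the synaptic vesicle cycle, with 70.5 and 88.3 (percentile 98.6), and HECW1, RGS5, GAP43, PCDH15, SLITRK1 and SDK1 followed, with SST and VSTM2A between them. LOC110260492 was the last of the 10. RGS5, known as a marker of pericytes, had 49.0 and 46.8, and GAP43, a growth cone protein, had 46.4 and 51.2. None of these 10 genes stands in the lists of kidney or epithelial genes. The liver-only promoters were led by GPT, CCDC33 (297.4 and 83.4), LOC100624333 and RTP3 (245.3 and 63.4), with B3GALT5, LOC100739741, F10, OLF42-3, C4BPB and NR1I3 after them. C4BPB encodes a plasma inhibitor of complement (251.5 and 45.5). Genes with the largest excess of kidney-only peaks were long. KAZN had 67 against 7, TENM4 68 against 15, TENM2 67 against 16, FHOD3 50 against 1 and NTM 49 against 2, followed by ESRRG, THSD4 and AUTS2, with spans of 549 to 3460 kb. After CPS1 the largest liver excesses included those in FOXP1 (48 against 20), C8H4orf17, FNDC3B, GBE1 (22 against 1), ATP2B2 and PSD3. GBE1 is the glycogen branching enzyme.

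Summit windows of the sets were then searched for 16 short consensus sequences on both strands. They were HNF1 (TTAATNATT), HNF4 (CAAAGTCCA), FOXA (TGTTTAC), CEBP (TTGCNNAA), ONECUT (AATCAAT), ESRR (TCAAGGTCA), TFAP2 (GCCNNNGGC), GRHL (AACCGGTT), PAX2 (GTCACGC), SIX2 (TCAGGTTTC), TEAD (CATTCCA), AP1 (TGANTCA), the GATA family (AGATAAG), ETS (ACCGGAAGT), CTCF (CCANNAGGG) and NRF1 (GCGCATGCG). A match is a string of letters and not a bound site. Windows of the 4 sets differed in base composition, with a median GC content of 52.5% in kidney-only, 49.5% in liver-only and 56.5% in both shared sets.

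Matches of hepatocyte and blood factors were more frequent in liver-only windows. CEBP was found in 14.6% (14.3 to 14.96) of liver-only and 7.30% (7.11 to 7.51) of kidney-only windows, against 9.08% of all windows of both lists. FOXA was found in 5.79% and 2.47%, against 3.61% of all. GATA was found in 5.26% and 1.71% (2.69% of all), and ONECUT in 4.02% and 1.04% (1.70% of all). The intervals of the liver-only and kidney-only sets did not overlap for any of these 4. The gaps widened in the more reproducible peaks, those at or under an IDR of 0.05, with CEBP at 20.6% against 8.04%, FOXA at 10.9% against 2.87% and ONECUT at 7.21% against 1.03%. HNF4 was rarer and leaned to liver, at 1.16% (1.07 to 1.26) against 0.702% (0.641 to 0.770).

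In kidney-only windows HNF1, TEAD and TFAP2 were the more frequent. HNF1 was found in 1.95% (1.84 to 2.06) of kidney-only and 1.10% (1.01 to 1.19) of liver-only windows, and in 3.54% and 1.40% at an IDR of 0.05 or lower. TEAD was found in 4.62% and 3.27%, and TFAP2 in 11.99% and 9.58%, against 13.8% of all windows. In the more reproducible peaks the gap of TEAD widened to 6.005% and 3.67%, and that of TFAP2 narrowed, from 2.42 to 1.52 percentage points. PAX2 (0.911% and 0.765%) and SIX2 (0.373% and 0.259%) differed by less than 0.2 percentage points. The order of SIX2 turned round in the more reproducible peaks (0.341% and 0.414%), and so did that of CTCF, from 5.83% and 6.24% to 5.58% and 5.02%. AP1 was found in 7.14% and 8.28%, and in 8.37% and 8.41% of the more reproducible peaks. ESRR leaned to liver (0.523% and 0.759%), and GRHL, ETS and NRF1 stood under 0.1% in both one-tissue sets. Reversed consensus sequences, of the same letters read backward, gave gaps under 0.1 percentage points for CEBP, ONECUT and TEAD. As kidney-only minus liver-only, the reversed gap was -0.58 percentage points for FOXA, 0.26 for HNF1 and 0.48 for TFAP2. Reversal changes how many CG pairs a sequence holds, so its level is not a background for CEBP or TFAP2.

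**Figure D4:**
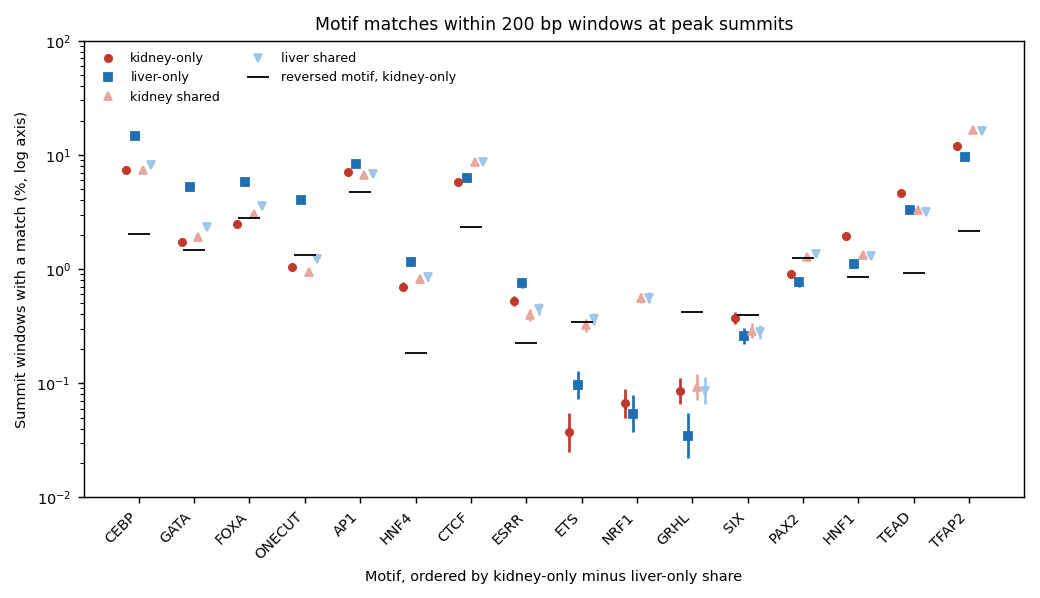
Percentage of 200 bp summit windows with a match to each consensus (log axis) in the kidney-only, liver-only and shared sets, with Wilson 95% intervals as vertical lines, and the reversed consensus in kidney-only windows as black dashes (that of NRF1, 0.00309%, lies under the axis). From left to right the consensus sequences go from higher in liver-only windows (CEBP, 14.6% against 7.30%) to higher in kidney-only windows (TFAP2, 11.99% against 9.58%).

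Some matches changed with strength and recurrence within the sets. From the weakest to the strongest of 4 equal bins of liver-only peaks CEBP went from 11.8% to 18.4%, FOXA from 3.83% to 8.70% and ONECUT from 3.06% to 5.71%. In kidney-only peaks HNF1 went from 1.18% to 3.15% and TEAD from 3.53% to 5.92%, while TFAP2 went the other way, from 12.9% to 11.15%, and GATA from 1.88% to 1.48%. Outside promoters, liver-only peaks called at both later ages held CEBP in 17.3% (16.9 to 17.8), FOXA in 7.36% and ONECUT in 5.23%. Those called at neither age held 12.1% (11.5 to 12.6), 4.604% and 3.35%. These peaks also differed in reproducibility, with 21.8% and 1.92% at an IDR of 0.05 or lower, and the part of strength in the gap was not tested. GATA went the other way by a narrow margin, with 5.35% (5.06 to 5.65) and 5.80% (5.42 to 6.20). In the 2267 liver-only peaks that were called in spleen and at neither later age GATA stood at 10.8% (9.59 to 12.2) and ONECUT at 0.926%. Only 0.662% of these peaks were at an IDR of 0.05 or lower, so nearly all were poorly reproducible calls. Kidney-only peaks called in none of newborn heart, lung, muscle and spleen held HNF1 in 2.44% (2.29 to 2.59), and those called in at least 1 of them in 1.01% (0.877 to 1.16). TEAD was higher in the latter, at 5.85% against 4.15%. Of the kidney-only peaks called in at least 1 of these tissues 22.4% were at an IDR of 0.05 or lower, against 14.9% of those called in none. The part of strength in these gaps was not tested either.

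**Figure D5:**
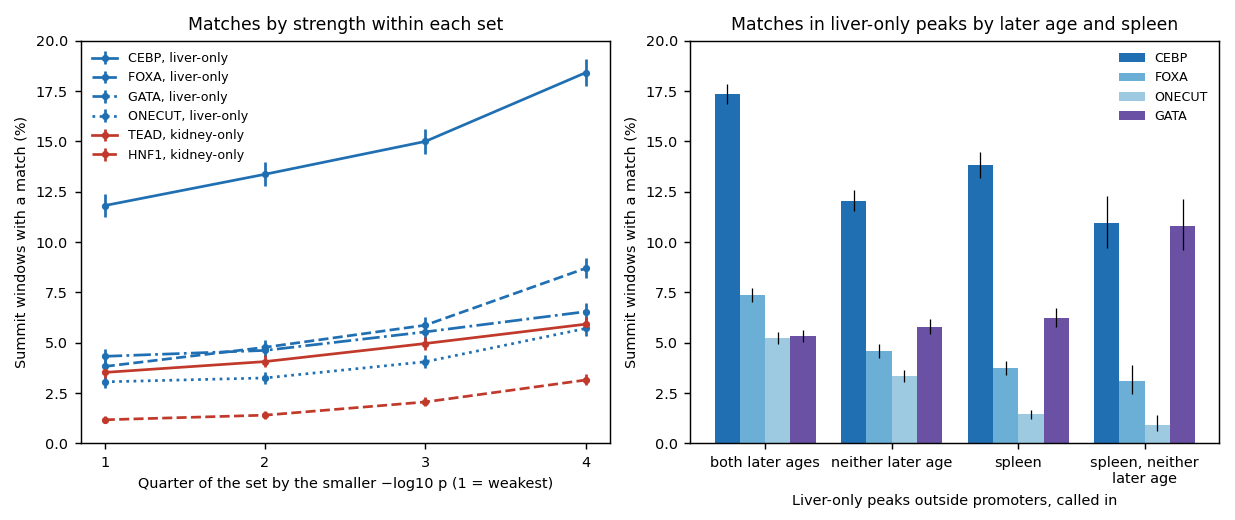
Left, percentage of summit windows with a match in each of 4 equal bins of liver-only (blue) and kidney-only (red) peaks by strength. Right, percentage in liver-only peaks outside promoters that were called at both later liver ages, at neither, in spleen, or in spleen and at neither later age. Bars on points and columns are Wilson 95% intervals. CEBP climbs from 11.8% to 18.4% with strength, and GATA reaches 10.8% in the peaks called in spleen and at neither later age.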

How the data were processed

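ATAC-seq libraries of newborn kidney and liver (2 replicates each) were analysed from 2 deposited lists of merged peaks. Per the study's methods, the authors aligned reads to Sscrofa11.1 with Bowtie2, filtered them with SAMtools (version 1.3.1 in the submitters' processing notes), called peaks in each replicate with MACS2 at a q-value of 0.05 and matched replicates with the IDR tool. For each peak the authors deposited the −log10 p of each replicate, the smaller of both, and a score, which is the scaled IDR (540 stands for an IDR of 0.05, and 1000 is the cap). These values depend on depth, for which nothing was adjusted, so they were ranked only within a list.

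Groups were taken from the labels. Peaks on chromosomes 1 to 18 were used, which left out 3.80% of the kidney and 3.76% of the liver list. Sets were formed by overlap of 1 bp. Genes (18725, with 44112 start sites) were RefSeq protein-coding genes of Sscrofa11.1, the build of the lists. Of 292 entries in 15 gene lists 284 were matched. PAX8, KRT7, CYP7B1, BAAT, AMN, CLDN2, VSIG4 and IL2RG were not matched to a protein-coding gene of these chromosomes. The genome gave the 200 bp windows. Overlap and consensus searches were checked on simulated data. Python 3.11.15, NumPy 2.4.6, pandas 2.3.3 and SciPy 1.17.1 were used.

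No test was made between tissues, because each list pools its replicates. Shares carry Wilson intervals at 95%. Per list, up to 4 genes with a promoter called in 1 tissue were named in each direction by the smaller −log10 p. The 10 strongest one-tissue promoters of each tissue, the 8 largest excesses of one-tissue peaks in each direction and the 5 strongest shared promoters were named as well. Other genes were named after their values were seen. Some genes that this rule would name are not reported here. The sets, the gene lists and the consensus sequences were chosen with earlier results of these data known. The divisions of the one-tissue peaks by strength, later age and other tissue were chosen after seeing the data. Alternatives were the number of peaks, the IDR, the overlap, the replicate whose boundaries were used, the promoter and the window.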

Additional observations from a re-analysis of the deposited data

How the results depend on the processing

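The equal number of peaks per list, the overlap of at least 50% of both peaks, the gap of 500 bp, the boundaries of 1 replicate and the narrow promoter (1 kb upstream to 100 bp downstream) left the 4 set counts and the 3 gene counts within 1.5 times the reported ones, as far as they apply. The other 4 settings moved 26 of these values, all but the genes called in both lists with the top 60000 peaks and with the limit on the list itself. With the top 60000 peaks there were 30362 kidney-only, 30266 liver-only, 29638 kidney shared and 29734 liver shared peaks, and 2087 and 1588 genes with a promoter in kidney only and liver only. The top 20000 gave 9693, 9683, 10307 and 10317 peaks, with 2109, 1494 and 6349 genes in kidney only, liver only and both. An IDR of 0.05 or lower in both lists gave 31218, 10096, 12261 and 12230 peaks and 3467, 1202 and 7144 genes. The same limit on the list itself, with every peak of the other list kept, gave 11158, 5801, 32321 and 16525 peaks and 281 and 116 genes. Fewer peaks enter under each of these by construction. Kidney-only shares of the list ran from 25.7% to 71.8% and liver-only shares from 26.0% to 50.4% under these 4.

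In the 9 settings for list counts, the difference between genes with kidney-only and liver-only promoters kept its sign for the 5 kidney and epithelial and the 5 metabolic lists. It reversed in 1 setting each for the erythroid, endothelial and stromal lists. Of the remaining values (list counts, shares and consensus matches), 353 stayed within their interval or within 1.5 times, and the rest, which were the greater number, moved. No paired analysis was possible because each list pools its replicates and no result comes from a test. Only the merged lists were analysed, so the counts have no replicate error here. No value was adjusted for depth, and a one-tissue peak says only that the other list holds no call there.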

Other observations

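The strongest promoter shared by both tissues was that of LEPROT, which shapes receptor traffic, with a −log10 p of 229.9 and 308.0 in the kidney replicates and 732.6 and 327.3 in the liver replicates, and TSN, CALCOCO1, RPP40 and ZNF622 followed, each above percentile 99.9 in both lists. The share of one-tissue peaks varied between chromosomes, from 42.8% on chromosome 12 to 58.1% on chromosome 11 for kidney-only peaks. For liver-only peaks it ranged from 39.5% on chromosome 12 to 49.0% on chromosome 18.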
